A study of Mus musculus with 20 samples.

Results

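The 10 genes described here, Hspa5, Hsp90b1, Pdia4, Pdia6, Calr, Dnajb9, Xbp1, Ddit3, Atf4 and Trib3, belong to the endoplasmic reticulum (ER) stress response and were measured in visceral fat, which the study names as mesenteric, of female C57BL/6J mice. They were chosen by symbol with no rule on their values, but with earlier results of these data known. The choice was from 18193 genes that have a probe set (a group of array probes for 1 transcript) annotated to 1 symbol. Each gene was read from its probe set with the highest mean level over all 20 arrays, and its other probe sets served as a check. The groups of 5 mice were HF pregnant, HF non pregnant, control pregnant and control non pregnant. HF mice were fed a diet with 58% of its energy as fat and control mice a diet with 10% (Research Diets), from 5 weeks of age and for 12 weeks before mating. The diets also differed in carbohydrate, which the paper gives as sucrose in the HF diet and corn starch in the control diet. Pregnant mice were sampled at day E18.5 of gestation. The labels give that same day as the age of the non pregnant mice, whose own age at sampling is not given in the sources used here, and visible lymph nodes had been dissected from the fat.

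Proteins that enter the secretory pathway fold in the ER. When unfolded proteins build up there, sensors in the ER membrane start the unfolded protein response: ATF6 is cut to release a transcription factor, IRE1 splices the mRNA of XBP1, and PERK phosphorylates eIF2α, which slows translation and favours translation of ATF4. ATF6 and spliced XBP1 raise chaperones and degradation factors, and ATF4 raises amino acid genes, Ddit3 and Trib3. In fat, this response is known for its link with obesity, inflammation and secretory load. An array of this kind reads total mRNA of a gene and says nothing of XBP1 splicing or of protein phosphorylation.

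The promoter sequences are shown because the chaperone genes of this group are textbook targets of one element, the ER stress response element (ERSE), read here as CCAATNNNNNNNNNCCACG on either strand. All 10 genes had an entry in the RefSeq promoter table (build GRCm38.p6, 250 bases before to 50 bases after the annotated start). The element was found in 4 of them, Hspa5, Hsp90b1, Pdia6 and Calr, and in 0.119% of 32851 promoters of the same length. The 250 bases before the start of these 4 genes follow, with each match in capitals, together with those of Pdia4 and Dnajb9, which hold no match and are shown for contrast. They lie at chr2:34771840-34772089 (Hspa5, plus strand), chr10:86705445-86705694 (Hsp90b1, minus strand), chr12:17266339-17266588 (Pdia6, plus strand), chr8:84846932-84847181 (Calr, minus strand), chr6:47813513-47813762 (Pdia4, minus strand) and chr12:44210069-44210318 (Dnajb9, minus strand), each printed 5′ to 3′ on the strand of its gene.
Hspa5: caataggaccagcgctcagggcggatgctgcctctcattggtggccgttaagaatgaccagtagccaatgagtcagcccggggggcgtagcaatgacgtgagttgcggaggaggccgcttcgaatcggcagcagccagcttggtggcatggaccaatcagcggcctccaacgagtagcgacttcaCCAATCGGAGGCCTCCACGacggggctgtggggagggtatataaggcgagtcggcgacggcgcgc
Hsp90b1: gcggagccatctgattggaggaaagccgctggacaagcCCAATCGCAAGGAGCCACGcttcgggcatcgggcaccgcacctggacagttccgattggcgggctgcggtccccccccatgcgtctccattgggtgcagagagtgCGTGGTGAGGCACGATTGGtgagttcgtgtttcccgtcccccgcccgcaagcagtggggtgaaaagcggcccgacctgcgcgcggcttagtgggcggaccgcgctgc
Pdia6: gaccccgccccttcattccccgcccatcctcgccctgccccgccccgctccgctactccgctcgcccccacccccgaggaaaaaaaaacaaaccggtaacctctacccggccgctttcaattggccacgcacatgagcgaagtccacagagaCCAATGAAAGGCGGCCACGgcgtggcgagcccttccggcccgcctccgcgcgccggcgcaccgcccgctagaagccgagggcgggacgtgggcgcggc
Calr: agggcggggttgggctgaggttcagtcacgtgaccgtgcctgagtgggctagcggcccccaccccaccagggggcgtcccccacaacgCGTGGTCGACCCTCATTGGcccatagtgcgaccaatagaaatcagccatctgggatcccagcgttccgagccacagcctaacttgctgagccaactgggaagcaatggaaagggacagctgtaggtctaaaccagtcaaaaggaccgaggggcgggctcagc
Pdia4: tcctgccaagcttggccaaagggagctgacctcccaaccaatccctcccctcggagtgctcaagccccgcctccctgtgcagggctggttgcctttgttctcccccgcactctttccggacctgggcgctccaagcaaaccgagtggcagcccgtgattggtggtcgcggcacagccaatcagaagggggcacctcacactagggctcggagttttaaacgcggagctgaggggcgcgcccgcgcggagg
Dnajb9: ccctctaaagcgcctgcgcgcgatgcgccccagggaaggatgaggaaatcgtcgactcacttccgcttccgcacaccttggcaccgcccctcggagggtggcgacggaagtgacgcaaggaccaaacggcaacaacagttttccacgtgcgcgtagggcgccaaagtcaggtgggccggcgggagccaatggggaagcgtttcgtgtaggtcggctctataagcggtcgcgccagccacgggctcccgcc
Hsp90b1 holds a pair of matches, one on each strand. The related element ERSE-II, read as ATTGG, any base and CCACG, was in none of the 10 windows and in 0.0365% of all promoters. The core TGACGTG of the unfolded protein response element was in the Hspa5 window alone (2.01% of all promoters). The ATF4 composite element, read as TGATGNAA, was in the Trib3 window alone (3.97% of all promoters), in its part after the start. All of these were searched on both strands, overlaps allowed, and a match or its absence describes the letters of the window only.

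Of the 10 genes, 9 passed the filter on low values (more than 100 intensity units on at least 5 of 20 arrays), and each of the 9 was above 100 on all 20 arrays at the probe set used. Trib3, a pseudokinase of the ATF4 branch, exceeded 100 on 3 of 20 arrays at that probe set and was left untested. The whole table held 45101 probe sets, of which 19802 passed, and the median intensity of an array lay between 60.69 and 64.73. Of the adipocyte markers, 10 of 10 measured passed the filter. Transcripts of other cell types stood beside them: the summed intensity of 15 pancreatic acinar markers was between 662 and 1871 units in the 10 HF mice, against 74938 in control pregnant mouse 2, 62210 in control non pregnant mouse 4 and lower levels in the other control mice. B cell markers (9 genes) summed to between 1060 and 9301 units in HF pregnant mice, 2523 and 20672 in HF non pregnant mice, 602 and 12187 in control pregnant mice and 921 and 6488 in control non pregnant mice.

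The first question was whether HF feeding changed these genes. Averaged over both pregnancy states, 0 of 9 tested genes differed between HF and control mice at an adjusted p under 0.05 by limma, where 1.24% of all probe sets did. At an unadjusted p under 0.05 there were 5 of 9, all higher in HF mice, against a background of 29.6% of probe sets. These 5 were the ER lumen folding factors Hspa5, Hsp90b1, Pdia4, Pdia6 and Calr. Over the 9 genes, 8 differences were positive with a median of 0.16 on the log2 scale, beside 57.6% positive and a median of 0.04 over all probe sets. In whole tissue, a change in the share of a cell type and a change in RNA per cell cannot be told apart.

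Hspa5 encodes BiP, the main ER chaperone of the Hsp70 family, which also holds the stress sensors inactive. Its log2 intensities were 12.61, 12.70, 12.69, 12.93 and 12.62 in HF pregnant mice and 12.72, 12.58, 12.78, 12.13 and 12.98 in HF non pregnant mice. They were 12.15, 12.60, 12.33, 12.70 and 12.52 in control pregnant mice and 12.10, 12.48, 12.17, 12.07 and 12.30 in control non pregnant mice. HF mice lay higher on average. The pregnant groups overlapped, and the non pregnant groups overlapped only through HF non pregnant mouse 4, which at 12.13 stood with the lowest control mice. The difference between HF and control mice was 0.33 ± 0.10 (SE, log2; 1.26-fold, adjusted p = 0.0759 by limma). Within the states it was 0.25 ± 0.14 between the pregnant groups and 0.41 ± 0.14 between the non pregnant groups.

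Pdia6, a protein disulfide isomerase that forms and shuffles disulfide bonds in the ER, had the smallest adjusted p of the 9 genes for diet. Its log2 intensities were 10.70, 10.73, 10.76, 10.72 and 10.75 in HF pregnant mice and 10.84, 10.74, 10.88, 10.49 and 10.94 in HF non pregnant mice. They were 10.62, 10.54, 10.58, 10.61 and 10.69 in control pregnant mice and 10.45, 10.66, 10.45, 10.42 and 10.44 in control non pregnant mice. The HF pregnant mice lay close together and all above the control pregnant mice, while HF non pregnant mouse 4 and control non pregnant mouse 2 bridged the non pregnant groups. The diet difference was 0.21 ± 0.05 (1.16-fold, adjusted p = 0.0566). Pdia6 was the 1 of 9 genes whose HF pregnant and control pregnant values did not overlap, which held for 3.51% of all probe sets.

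Pdia4, another disulfide isomerase of the ER, was measured on log2 scale at 9.46, 9.49, 9.64, 9.63 and 9.79 in HF pregnant mice and 9.66, 9.35, 9.35, 9.25 and 9.69 in HF non pregnant mice. It was measured at 9.40, 9.27, 9.29, 9.60 and 9.26 in control pregnant mice and 9.10, 9.27, 9.33, 8.87 and 9.04 in control non pregnant mice. HF pregnant was the highest group and control non pregnant the lowest, with the other two between them. The diet difference was 0.29 ± 0.08 (1.22-fold, adjusted p = 0.0629). Pdia4 was also higher in pregnant than in non pregnant mice by 0.19 ± 0.08, with an adjusted p of 0.941.

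The remaining folding factors were Hsp90b1 and Calr. Hsp90b1, the ER member of the Hsp90 family (GRP94), ranged from 12.06 to 12.39 in HF pregnant mice and 11.75 to 12.39 in HF non pregnant mice, against 11.63 to 12.22 in control pregnant mice and 11.71 to 12.09 in control non pregnant mice. Its diet difference was 0.22 ± 0.09 (adjusted p = 0.123). Calr, or calreticulin, a lectin chaperone that also binds calcium, ranged from 12.00 to 12.18 in HF pregnant mice and 11.76 to 12.15 in HF non pregnant mice, against 11.76 to 12.01 in control pregnant mice and 11.69 to 12.11 in control non pregnant mice. Its diet difference was 0.16 ± 0.07 (adjusted p = 0.133). All groups of both genes overlapped.

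Dnajb9 ran the other way. It encodes ERdj4, a J-domain cochaperone of BiP that serves degradation of misfolded proteins and is a known target of spliced XBP1. Its log2 intensities were 10.21, 10.41, 10.53, 10.60 and 10.55 in HF pregnant mice and 10.24, 10.15, 10.15, 10.43 and 10.17 in HF non pregnant mice. They were 10.62, 10.38, 10.72, 10.54 and 10.44 in control pregnant mice and 10.50, 10.18, 10.82, 10.31 and 10.54 in control non pregnant mice. HF non pregnant mice were the lowest group, at 10.15 to 10.43, and the other groups reached 10.60 or more. The diet difference was -0.16 ± 0.08 (adjusted p = 0.176), made of -0.08 ± 0.11 between the pregnant groups and -0.24 ± 0.11 between the non pregnant groups.

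**Figure D1:**
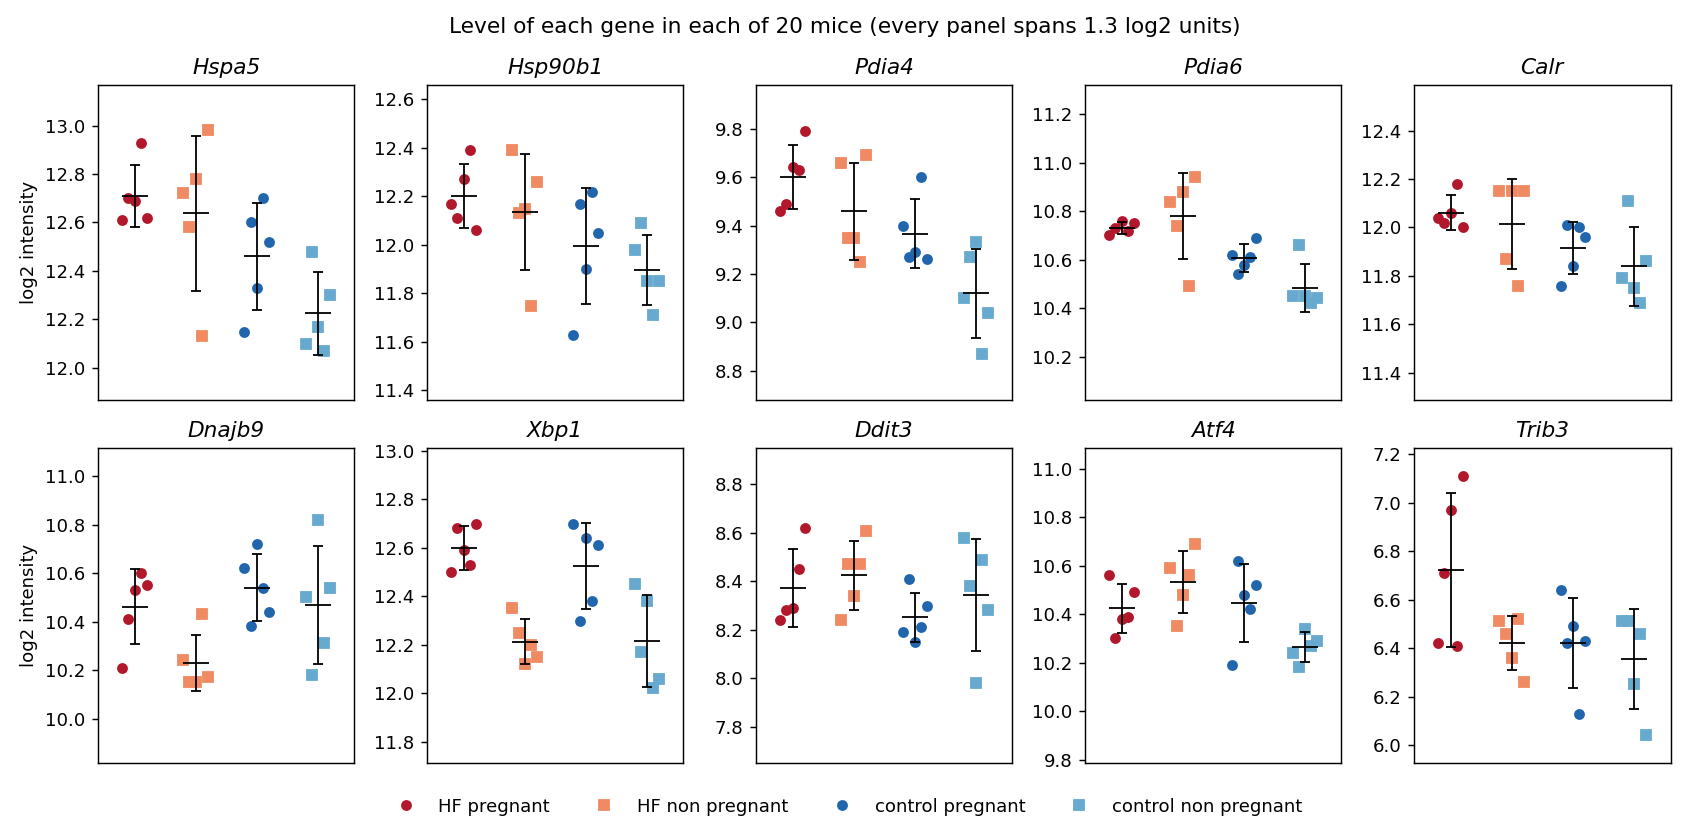
Log2 intensity (y axis) of each gene in each mouse, with points for mice, and bars for the group mean and SD (n = 5), in panels that each span 1.3 log2 units. Pdia6 kept the narrowest range in HF pregnant mice (10.70 to 10.76), and Xbp1 separates HF pregnant mice (12.50 and above) from HF non pregnant mice (12.35 and below).

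Between the non pregnant groups (HF against control), 0 of 9 genes passed at an adjusted p under 0.05 by limma, as did 0% of all probe sets, and 5 of 9 at an unadjusted p under 0.05, where the background was 17.7%. Of the 5, Hspa5, Pdia4, Pdia6 and Atf4 were higher and Dnajb9 lower in HF mice. Between the pregnant groups (HF against control), 0 of 9 passed the adjusted threshold (0.192% of all probe sets) and 1 of 9, Pdia4, the unadjusted one (12.8%). Whether the diet effect differed between the states was tested by the interaction, which 0 of 9 genes passed after adjustment (0% of probe sets) and 1 of 9, Atf4, before it (3.08%). With each array weighted by its fit to the model, 7 of 9 genes passed between the non pregnant groups, where 37.8% of all probe sets did, and 5 of 9 in the diet comparison over both states, where 46.1% did. Left out in turn, HF non pregnant mouse 4, control pregnant mice 2 and 4 and control non pregnant mouse 2 each brought the diet comparison over both states to 3, 3, 2 and 2 genes called, and the share of all probe sets called to 5.87%, 21.9%, 3.78% and 2.55%.

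The second question was whether pregnancy changed these genes, and Xbp1 had the largest such difference. It encodes the transcription factor whose mRNA IRE1 splices and which secretory cells need to enlarge their ER. Its log2 intensities were 12.50, 12.68, 12.59, 12.53 and 12.70 in HF pregnant mice and 12.35, 12.25, 12.12, 12.20 and 12.15 in HF non pregnant mice. They were 12.70, 12.30, 12.64, 12.38 and 12.61 in control pregnant mice and 12.45, 12.17, 12.38, 12.02 and 12.06 in control non pregnant mice. Every HF pregnant mouse lay above every HF non pregnant mouse, whereas control pregnant mice 2 and 4 overlapped with the control non pregnant mice. Averaged over the diets, Xbp1 was higher in pregnant mice by 0.35 ± 0.07 (1.27-fold), with an unadjusted p of 6.79e-05 in limma and an adjusted p of 0.122. The difference was 0.39 ± 0.10 between the HF groups (adjusted p = 0.385) and 0.31 ± 0.10 between the control groups (adjusted p = 0.963). By diet it was 0.04 ± 0.07.

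Of the 9 tested genes, 0 passed at an adjusted p under 0.05 for pregnancy averaged over the diets (limma, 0.0101% of all probe sets), and 2, Xbp1 and Pdia4, passed at an unadjusted p under 0.05 (4.59%). Between the HF groups (pregnant against non pregnant) the adjusted threshold was passed by 0 of 9 (0.0252%) and the unadjusted one by 2 of 9, Xbp1 and Dnajb9 (4.66%). Between the control groups (pregnant against non pregnant) it was 0 of 9 (0%) after adjustment and 3 of 9, Pdia4, Xbp1 and Atf4, before it (2.90%). All of these were higher in pregnant mice. Xbp1 was the 1 of 9 genes whose HF pregnant and HF non pregnant values did not overlap (1.53% of all probe sets), and none of the 9 had control groups that did not overlap (0.217%). With the arrays weighted, Xbp1 and Pdia4 passed for pregnancy over both diets (8.62% of all probe sets), and Xbp1 and Dnajb9 passed between the HF groups (13.5%).

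**Figure D2:**
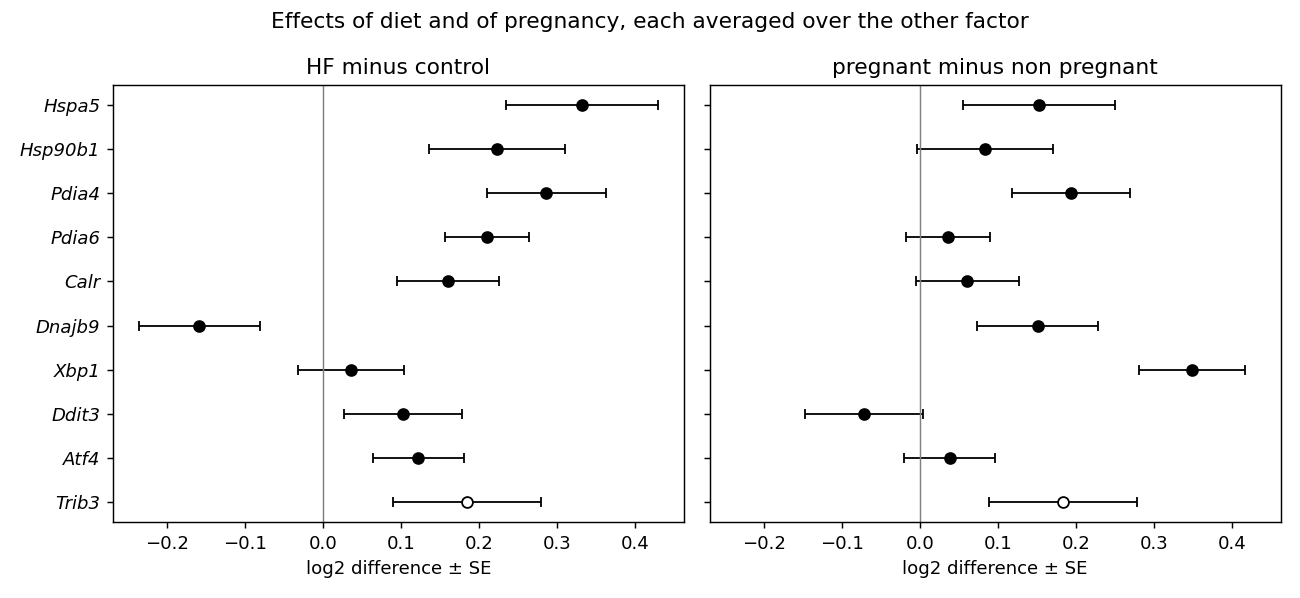
Log2 difference (x axis, with SE) of each gene between HF and control mice over both pregnancy states (left) and between pregnant and non pregnant mice over both diets (right), with Trib3, which missed the filter at the probe set used, as an open point. The 5 folding factors at the top lie between 0.16 and 0.33 for diet with Dnajb9 at -0.16, and Xbp1 stands at 0.35 for pregnancy and 0.04 for diet.

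The PERK branch was read from Atf4, Ddit3 and Trib3. ATF4 is the transcription factor made when eIF2α is phosphorylated, and its output is set largely by translation. Log2 intensities of Atf4 were 10.56, 10.30, 10.38, 10.39 and 10.49 in HF pregnant mice and 10.59, 10.35, 10.48, 10.56 and 10.69 in HF non pregnant mice. They were 10.19, 10.62, 10.48, 10.42 and 10.52 in control pregnant mice and 10.24, 10.18, 10.34, 10.27 and 10.29 in control non pregnant mice. Every HF non pregnant mouse lay above every control non pregnant mouse, which held for 1 of 9 genes and 2.19% of all probe sets, whereas the pregnant groups overlapped almost fully. The difference was 0.27 ± 0.08 between the non pregnant groups (adjusted p = 0.281) and -0.02 ± 0.08 between the pregnant groups (adjusted p = 0.892). The interaction, the pregnancy effect in HF mice minus that in control mice, was -0.29 ± 0.12 with an unadjusted p of 0.0231 in limma and an adjusted p of 0.933.

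Ddit3 encodes CHOP, a factor that favours cell death under lasting ER stress. It ranged from 8.24 to 8.62 in HF pregnant mice and 8.24 to 8.61 in HF non pregnant mice, against 8.15 to 8.41 in control pregnant mice and 7.98 to 8.58 in control non pregnant mice. All groups overlapped, and its difference was 0.10 ± 0.08 for diet (adjusted p = 0.341) and -0.07 ± 0.08 for pregnancy (adjusted p of 1.0). Trib3 in the same mice was at 6.42, 6.71, 6.97, 6.41 and 7.11 in HF pregnant mice and 6.51, 6.46, 6.36, 6.52 and 6.26 in HF non pregnant mice. It was at 6.64, 6.42, 6.49, 6.13 and 6.43 in control pregnant mice and 6.51, 6.51, 6.25, 6.46 and 6.04 in control non pregnant mice. HF pregnant mice 2, 3 and 5 had the 3 highest values of all 20 mice and were the 3 arrays above 100 intensity units, while the other 17 mice were between 6.04 and 6.64. Because this probe set did not pass the filter the gene has no call here, and in the fit without a filter its difference was 0.30 ± 0.13 both between the HF groups (pregnant against non pregnant) and between the pregnant groups (HF against control). Its other probe set, above 100 on 5 arrays, passed the filter and gave 0.27 between the HF groups and 0.16 between the pregnant groups.

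The other probe sets of these genes were read as a check. The 10 genes had 24 probe sets, 20 of which passed the filter, and Dnajb9 alone had a single one. The other probe sets of Pdia4 and Pdia6 exceeded 100 on 0 of 20 arrays and did not pass. Their diet differences were -0.08 and 0.03, so the diet differences of Pdia4 and Pdia6 have no usable check. For Xbp1, the 4 probe sets gave pregnancy differences of 0.31, 0.35, 0.39 and 0.39, and diet differences of -0.09, 0.00, 0.01 and 0.04. Those of Hspa5 gave diet differences of 0.33, 0.26 and 0.05, those of Hsp90b1 0.22 and 0.26, and those of Calr 0.16, 0.11 and 0.10. Atf4 was at 0.12 by the probe set used and 0.37 by the other that passed, which also put the pregnant groups 0.24 apart where the first had -0.02. For Ddit3 the diet difference was 0.10 by the probe set used and 0.24 by the other that passed, which was above 100 on 9 arrays. Its pregnancy differences were -0.07 and -0.22. Between the HF groups (pregnant against non pregnant) they were -0.05 and -0.32, and between the non pregnant groups (HF against control) 0.08 and 0.34. Of the 6 genes with more than 1 probe set that passed, all agreed in sign in 5 for diet (not Xbp1) and in 5 for pregnancy (not Hsp90b1).

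Across the 20 mice the folding factors varied together. The 10 pairs among Hspa5, Hsp90b1, Pdia4, Pdia6 and Calr had Pearson r of 0.67 to 0.92, and 0.47 to 0.90 once each mouse was set against its own group mean. Without the 2 mice farthest from the median of the first gene of each pair, these ranges were 0.64 to 0.92 and 0.30 to 0.89. The within-group r was then 0.30 for Hspa5 and Pdia4, against 0.50 with all mice, and 0.44 for Hspa5 and Pdia6, against 0.74. The closest pair was Hspa5 and Calr (r = 0.92, Spearman rho = 0.89, and 0.91 without the 2 mice farthest from the Hspa5 median). The other 35 pairs had r of -0.51 to 0.59. Dnajb9 was at -0.51 with Pdia6, -0.44 with Calr and -0.39 with Hspa5, and at 0.52 with Xbp1. Xbp1 was at 0.09 with Hspa5 over all mice and -0.39 within groups, and at 0.59 with Trib3, which did not pass the filter. These are descriptions over 20 mice whose arrays share tissue, depot and cell makeup.

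**Figure D3:**
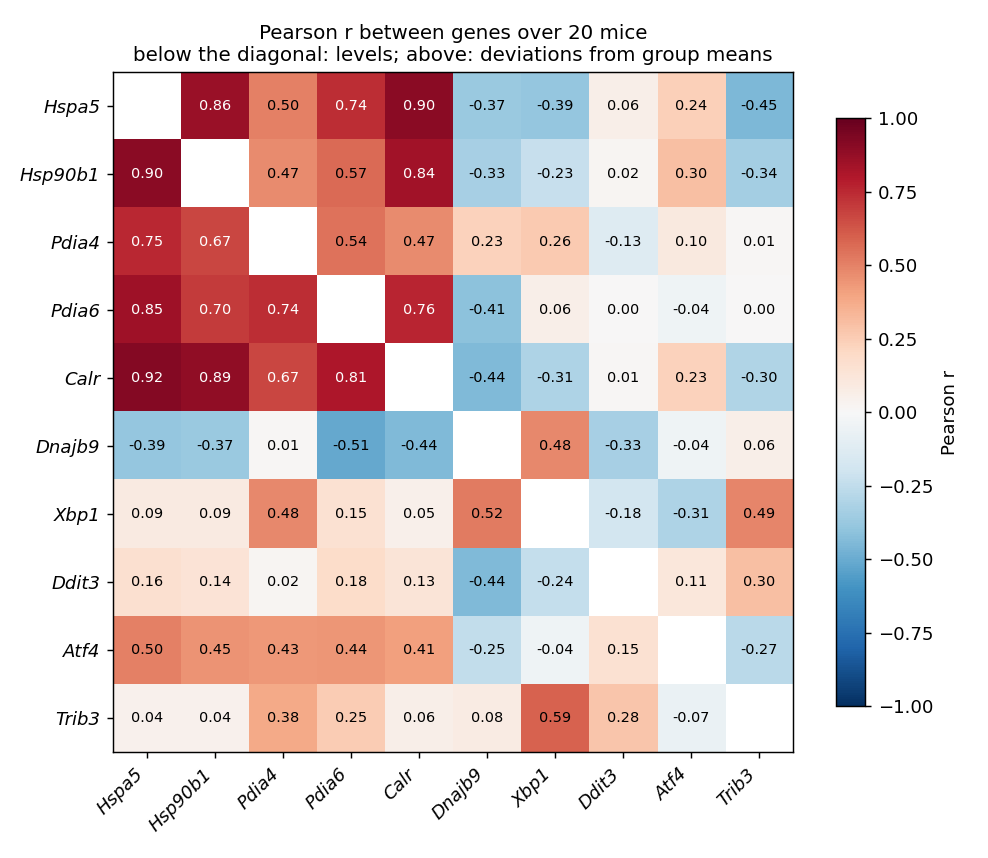
Pearson r between each pair of genes over 20 mice, from the log2 levels below the diagonal and from deviations from the group means above it. The block of the 5 folding factors is at 0.67 or more below the diagonal and 0.47 or more above it, and Dnajb9 is between -0.51 and 0.01 with these 5 below the diagonal.

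Genes outside the 10 with the most similar pattern were sought over 10592 genes that passed the filter. Closest to Hspa5 were Creld2 (r = 0.92), Manf (r = 0.92) and Ostc (r = 0.91), where Creld2 and Manf are secreted proteins known to be raised by ER stress and Ostc is part of the oligosaccharyltransferase. Among the 100 genes closest to Hspa5, 12 came from the lists described next (Creld2, Manf, Sdf2l1, Pdia3, Hspa8, Spcs3, Ppib, Atf6b, Hyou1, Canx, Ddit4 and Sec61a1), where 0.972% of all compared genes belong to those lists. Hspa8 among these is from the cytosolic heat shock list, which lies outside the ER pathway and is part of both counts. Closest to Xbp1 were Uhrf1bp1l (r = 0.87), Socs2 (r = 0.85), a suppressor of growth hormone signalling, and Agt (r = 0.85), which encodes angiotensinogen. The count from the lists was 2 for Xbp1 (Slc3a2 and Selenos). For Atf4 the closest were Cspp1 (r = 0.85), Uspl1 (r = 0.84) and Zbtb1 (r = 0.83), with 0 from the lists. For Trib3 they were Zfp598 (r = 0.89, rho = 0.71), Vnn1 (r = 0.86, rho = 0.73) and Slc25a42 (r = 0.86, rho = 0.69), with 1 from the lists, P4hb. Trib3 exceeded 100 on 3 of 20 arrays, all of HF pregnant mice, so its r values rest on mostly dim readings.

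Other genes were counted in 7 lists, of which that of cytosolic heat shock genes lies outside the ER pathway and serves for comparison. For diet over both states, ER folding factors outside the 10 genes had 16 of 20 tested genes higher in HF mice, with a median of 0.15 and 0 called. At an unadjusted p under 0.05 by limma, 8 of the 20 were higher and 1 lower, where 29.6% of all probe sets passed. The smallest p belonged to Ppib, a proline isomerase of the ER, at 0.22 ± 0.07 (adjusted p = 0.0936), and Fkbp2, another isomerase, at -0.21 ± 0.07 (adjusted p = 0.103). ER-associated degradation factors had a median of 0.04 with 0 of 17 called, and Derl1, a channel component for retrotranslocation, was at -0.30 ± 0.09 (adjusted p = 0.0864). Sensors and their proteases had a median of 0.15 with 0 of 8 called. The site-2 protease Mbtps2, which cuts ATF6, was at -0.15 ± 0.05 (adjusted p = 0.0953) and Ern1, which encodes IRE1α, at 0.20 ± 0.07 (adjusted p = 0.106). ER translocation and transport genes had a median of 0.05 with 0 of 18 called, and the eIF2α kinases and phosphatase subunit a median of 0.00 with 0 of 4 called.

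ATF4 targets had a median of -0.04, with 10 of 24 higher. They held the 1 gene called for diet among the 103 tested in the 7 lists, where 1.24% of all probe sets were called. The called gene was Ddit4, an inhibitor of mTORC1 that is induced by several stresses besides ER stress. It averaged 10.50 ± 0.19 in HF pregnant mice and 10.07 ± 0.67 in HF non pregnant mice, against 9.33 ± 0.59 in control pregnant mice and 9.18 ± 0.58 in control non pregnant mice (SD, n = 5). The diet difference was 1.03 ± 0.23 (adjusted p = 0.0365). The call was lost on leaving out any single one of 12 mice (HF pregnant 1, 2, 3 and 4; HF non pregnant 1, 3 and 5; control pregnant 1, 3 and 5; control non pregnant 3 and 4), with differences of 0.93 to 1.16 over all 20 such fits.

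Cytosolic heat shock genes, a list outside the ER, had 12 of 12 tested genes higher in HF mice for diet, with a median of 0.20 and 0 called. Between the non pregnant groups (HF against control) their median was 0.31 with 10 of 12 higher, beside 0.18 for the ER folding list and 0.01 for all probe sets. Between the HF groups (pregnant against non pregnant) it was -0.18 with 2 of 12 higher, beside 0.03 for the folding list. Dnaja1, a cochaperone of cytosolic Hsp70, had the smallest p there at -0.44 ± 0.18 (adjusted p = 0.995). For pregnancy over both diets, the folding list had a median of 0.05 with 16 of 20 higher and 0 called, and the degradation list a median of 0.03 with 0 of 17 called. In the latter, Selenos, a selenoprotein of the degradation complex, was at 0.20 ± 0.04 (adjusted p = 0.219).

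**Figure D4:**
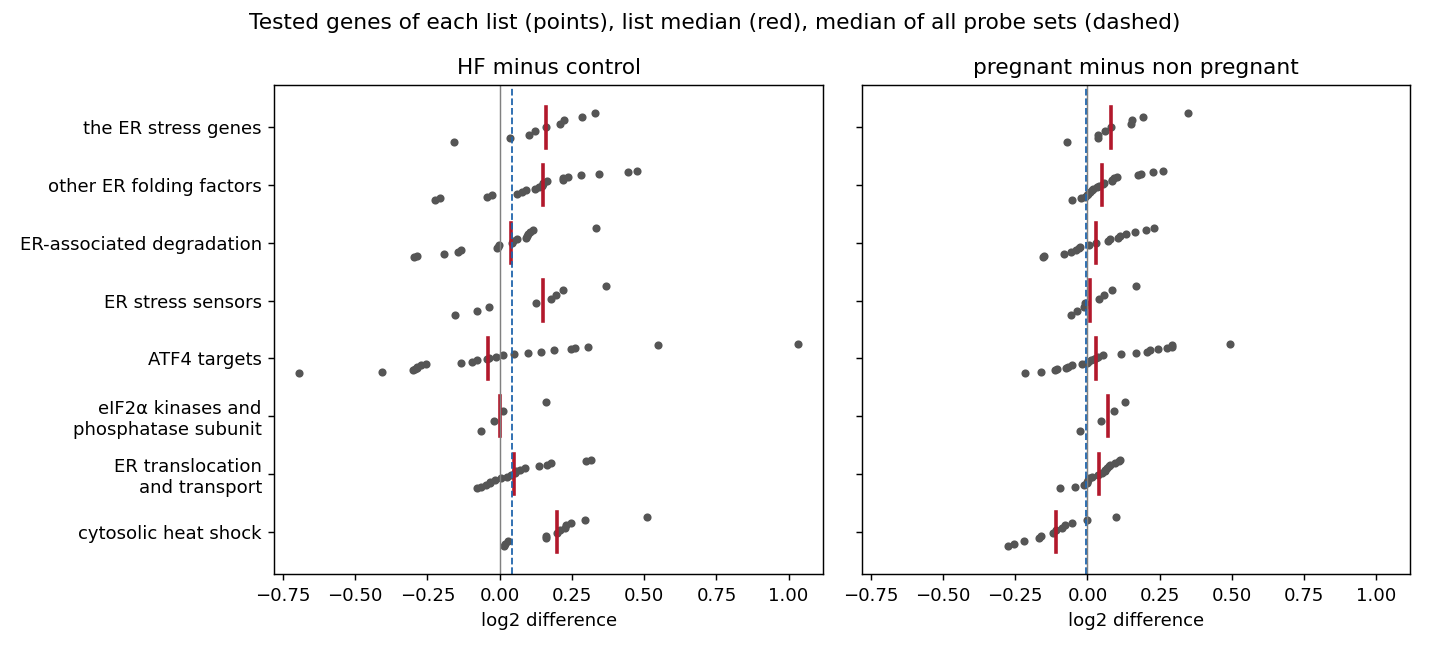
Log2 difference (x axis) of every tested gene of each list between HF and control mice (left) and between pregnant and non pregnant mice (right), with the list median in red and the median of all probe sets dashed. For diet the medians of the ER stress genes (0.16), other folding factors (0.15), sensors (0.15) and cytosolic heat shock genes (0.20) lie to the right of the median of all probe sets (0.04), and Ddit4 is the point at 1.03.

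Genes with the ERSE in their promoter window were also counted beyond the 10. The table holds 37 such genes, of which 15 passed the filter, 11 of them outside the 10 genes. For diet, 8 of these 11 were higher in HF mice, with a median of 0.10 and 0 called, beside the 0.04 of all probe sets. Canx, or calnexin, a membrane lectin chaperone, was at 0.14 ± 0.05 and Creld2 at 0.34 ± 0.14, while Acacb, an acetyl-CoA carboxylase with no folding role, was at -1.29 ± 0.38 (adjusted p = 0.0754). For pregnancy the median was 0.06. The promoters shown above with the element belong to Hspa5, Hsp90b1, Pdia6 and Calr, whose diet differences were 0.16 to 0.33, and the 2 shown without it to Pdia4 at 0.29 and Dnajb9 at -0.16. The other tested genes without a match, whose promoters are not shown, were Xbp1 at 0.04, Ddit3 at 0.10 and Atf4 at 0.12. Whether the element bears on the diet differences was not tested.

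Marker levels of other cell types varied with several of these genes. Plasma cells secrete antibody and carry high levels of ER chaperones. Of 12 listed plasma cell markers, 10 were measured apart from Xbp1, with summed intensities of 10108 to 34784 units in HF pregnant mice and 9590 to 28577 in HF non pregnant mice, against 3015 to 29128 in control pregnant mice and 2319 to 15993 in control non pregnant mice. Prdm1, Tnfrsf17 and Fkbp11 of these did not pass the filter. The mean log2 level was taken over the 7 that did. Derl3 is among these 7 and also on the ER-associated degradation list, so this mean is not fully separate from the ER genes. It correlated with Hspa5 (r = 0.68, rho = 0.77, and 0.52 within groups), Calr (0.54 and 0.37 within groups) and Atf4 (0.68 and 0.58 within groups). The r was 0.40 with Pdia6 (0.02 within groups) and -0.09 with Xbp1 (-0.54 within groups). The r with Hspa5 was 0.63 for B cell, 0.56 for T cell, 0.68 for macrophage, -0.68 for adipocyte, -0.28 for acinar, -0.09 for endothelial and -0.17 for mesothelial markers. In the same order, the within-group r with Hspa5 was 0.54, 0.49, 0.62, -0.59, -0.08, -0.39 and -0.20. With Calr it was 0.41, 0.37, 0.58, -0.53, -0.17, -0.27 and -0.08. With Hsp90b1 it was 0.52, 0.48, 0.66, -0.62, -0.09, -0.31 and -0.12. It was weaker for most lists with Pdia4, at 0.10, 0.04, 0.16, -0.22, -0.48, -0.06 and 0.01. With Pdia6 it was 0.03, 0.01, 0.30, -0.23, -0.25, -0.08 and 0.14. For plasma cell markers the within-group r was 0.53 with Hsp90b1 and 0.15 with Pdia4. For diet, 8 of 8 tested plasma cell markers, Xbp1 among them (median 0.69), 8 of 8 B cell markers (1.32), 9 of 9 T cell markers (0.85), 7 of 9 macrophage markers (0.32) and 7 of 8 endothelial markers (0.16) were higher in HF mice, while 10 of 10 adipocyte markers (-0.28), 4 of 4 acinar markers (-1.26) and 5 of 6 mesothelial markers (-0.08) were lower. At an unadjusted p under 0.05 by limma, 29.6% of all probe sets passed. Higher at that threshold were 3 of 8 plasma cell, 0 of 8 B cell, 0 of 9 T cell, 2 of 9 macrophage and 3 of 8 endothelial markers. Lower were 3 of 10 adipocyte, 1 of 4 acinar and 0 of 6 mesothelial markers. The 1 call among all marker lists was Slc2a4, the insulin-responsive glucose transporter of adipocytes, at -1.08 ± 0.23 (adjusted p = 0.0294 by limma). Of all probe sets, 1.24% were called for diet. Adipocyte markers summed to 76631 to 105995 units in HF pregnant mice and 62176 to 109959 in HF non pregnant mice, against 78055 to 121355 in control pregnant mice and 98755 to 105041 in control non pregnant mice. The part of these cells in the diet differences was not tested. Pancreatic acinar cells are also rich in ER chaperones, and their markers were highest in 2 control mice; without these 2 mice the diet differences were 0.33 for Hspa5, 0.19 for Pdia6, 0.24 for Pdia4 and -0.20 for Dnajb9.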

How the data were processed

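RNA of visceral fat from 20 mice was hybridised to Affymetrix mouse expression arrays, 1 mouse per array and 5 mice per group. The authors normalized the scans by RMA with the affy package (R 2.8.0, per the labels), and the deposited intensity of each probe set is on the linear scale. RMA shrinks differences of dim probe sets, and the number of arrays limits the precision. Extraction is given as Trizol in the labels and as a column kit in the methods, and no scan batch is stated in the sources used here.

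The log2 of each intensity was taken and nothing further normalized. The 64 hybridisation control probe sets were excluded, and probe sets above 100 on at least 5 of 20 arrays were kept (19802 of 45101). In the table, 34958 probe sets carry 1 symbol, 932 several and 9211 none. Group means were fitted with limma 3.58.1 in R 4.3.3, with p-values adjusted by Benjamini-Hochberg over all kept probe sets and a threshold of 0.05. The fit was tested on simulated data. The 5 mice of a group are separate animals, and 7 comparisons were read from the one fit, which share samples. Genes named are the 10 described, the called genes of each pathway list (at most 4), up to 2 with the smallest p where none was called, and the 3 genes closest to Hspa5, Xbp1, Atf4 and Trib3. Genes with an ERSE were named after their values were seen. The 10 genes and all lists (folding, degradation, sensors, ATF4 targets, eIF2α kinases and phosphatase subunit, translocation and transport, cytosolic heat shock, and markers of plasma, B, T, acinar, adipocyte, macrophage, endothelial and mesothelial cells) were chosen with earlier results of these data known. Correlations are descriptions and carry no test. The alternatives tried were other filters, weights, normalizations, a replicate block, and leaving out mice. The rank product test of the methods was not run, and listed genes with no probe set of their own symbol were not analysed here.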

Additional observations from a re-analysis of the deposited data

Results flagged for a closer look

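In 40 groups of 5 mice (10 genes in 4 groups), 2 had a mouse far from the others, where chance gives about 1 in 20. HF pregnant mouse 4 had an Hspa5 level of 12.93 on the log2 scale, against 12.61 to 12.70 in the other HF pregnant mice, and the gap took 0.73 of the range. Control non pregnant mouse 2 had a Pdia6 level of 10.66, against 10.42 to 10.45 in the other control non pregnant mice, and the gap took 0.88 of the range.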

How the results depend on the processing

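In the 7 comparisons 0 of 9 genes were called, and 32 alternatives were tried. Array weights gave HF non pregnant mouse 3 a weight of 11.3 and control pregnant mouse 1 a weight of 0.233. With them the genes called were 2 between the HF groups (13.5% of all probe sets) and 7 between the non pregnant groups (37.8%). They were 5 for diet (46.1%) and 2 for pregnancy (8.62%). Repeated quantile normalization gave 1 for diet, Pdia6, whose adjusted p by limma went from 0.0566 to 0.0495. The share of all probe sets called under that setting is not given here, so this count has no background beside it. Leaving out the 2 mice highest in acinar markers also gave 1, Pdia6 (adjusted p = 0.0497 by limma), where 1996 of all probe sets passed. Leaving out each mouse gave 0 to 3 for diet, where 42 to 4309 of all probe sets passed, and 0 in the other comparisons. The cause of these changes was not tested.

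The probe sets called were 246 for diet, with 42 to 4309 on leaving out each mouse, 112 without the filter, 161 with intensities under 100 set to 100, 1996 without the 2 acinar mice, 628 by an unadjusted p and a fold of 1.5, 19 with the replicate block and 9136 with array weights. Between the pregnant groups (HF against control) they were 38, with 15 to 62 on leaving out each mouse, 25 without the filter, 64 with these groups alone, 561 by the fold rule, 17 with the block and 1365 with weights. Between the HF groups (pregnant against non pregnant) they were 5, with 3 to 10 on leaving out each mouse, 0 with these groups alone, 251 by the fold rule, 3 with the block and 2679 with weights. Where 0 were called, weights gave 7489 (HF non pregnant against control non pregnant), 4 (control groups) and 2 (interaction), the fold rule 774, 96 and 177, no filter 1 in the first of these, and leaving out each mouse at most 1, in the interaction. For pregnancy, 2 were called, with 0 to 10 on leaving out each mouse, 1 without the filter, 0 without the 2 acinar mice, 105 by the fold rule, 0 with the block and 1706 with weights. The replicate number did not pair the mice: the 30 pairs with the same number had a median correlation of -0.16 (-0.75 to 0.67), and 2 of 20 arrays were closest to one of their own number. The block changed no call among the 10 genes, and with it Ddit4 had an adjusted p of 0.108, without the filter 0.063 (0.000236 to 0.108 over its alternatives).

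Single values near 0 changed sign. Between the HF groups (pregnant against non pregnant) these were Hspa5 (-0.0085) and Calr (-0.038) with weights, Hsp90b1 (-0.0051) as the mean of its probe sets, and, leaving out each mouse, Hspa5 (-0.0561 to 0.157), Hsp90b1 (-0.0304 to 0.13) and Calr (-0.0163 to 0.0803). Between the pregnant groups (HF against control) Atf4 was 0.021 without the acinar mice, 0.039 as a mean, and -0.0871 to 0.021 on leaving out each mouse. Between the non pregnant groups (HF against control) Xbp1 was 0.018 with weights, 0.023 with quantile normalization and -0.0495 to 0.0568 on leaving out each mouse, and Ddit3 was -0.067 with weights and -0.00647 to 0.143 on leaving out each mouse. Dnajb9 between the control groups was -0.00242 to 0.157 on leaving out each mouse. In the interaction, without the acinar mice Hsp90b1 was 0.058 and Calr 0.033, as means Pdia4 was 0.023 and Ddit3 -0.076, with weights Xbp1 was -0.0029, and leaving out each mouse gave Hsp90b1 -0.13 to 0.0305, Calr -0.0954 to 0.0102 and Ddit3 -0.0241 to 0.128. For diet, Xbp1 was -0.017 without the acinar mice and -0.0096 as a mean, and Ddit3 was -0.0074 with weights. For pregnancy Pdia6 was -0.000287 to 0.0577 on leaving out each mouse.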
